A study of Mus musculus with 8 samples.

Results

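The genes described here are the actins, myosins and other contractile genes that include classic targets of serum response factor (SRF). They were chosen by name from a list of 36 genes, of which 35 had a row among the 48527 genes of the per-library table. The list holds 18 muscle genes, here meaning smooth and striated muscle isoforms and genes rich in smooth muscle, and 18 general genes, meaning isoforms that most cells use and genes of adhesions. Of the 36, 31 had a mean of at least 1 FPKM (fragments scaled by transcript length and library size) over all libraries and entered the tests, 13 of the 18 muscle and all 18 general genes. Acta1 (skeletal muscle actin) had no row, and Actc1 (cardiac muscle actin), Myh11 (smooth muscle myosin heavy chain), Synpo2 (an actin-binding protein of the Z line) and Myocd (myocardin) were under 1 FPKM. Tgfb1i1 had a second row under another identifier, which was listed at 0 in every library.

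Fibroblasts pull on their surroundings with stress fibres, bundles of actin filaments that are held together by cross-linking proteins and moved by myosin. SRF is a transcription factor that binds CArG boxes, often with a partner of the myocardin family. The partners Mrtfa and Mrtfb are held in the cytoplasm by monomeric actin, so that the state of actin feeds back on many actin genes. When fibroblasts take on a myofibroblast or smooth muscle-like state they add muscle isoforms such as Acta2 (smooth muscle alpha-actin), calponin 1 and the smooth muscle regulatory light chain to the general ones. YAP works with TEAD factors on DNA, is kept in check by the Hippo kinases, and is known to respond to tension in the actin cytoskeleton.

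The libraries came from mouse embryonic fibroblasts (MEFs) that received a lentiviral vector, were cultured with doxycycline at 1 µg/mL and were sorted for the fluorescent protein of the vector. The YAP group held 4 libraries, of which 2 carried wild-type YAP fused to mCherry (replicates 3 and 4) and 2 wild-type YAP fused to GFP (replicates 1 and 2). The EV group held 4 libraries with an empty control vector, 2 encoding mCherry (replicates 3 and 4) and 2 encoding GFP (replicates 1 and 2). All groups shared the doxycycline, the lentivirus and the sort, and the promoter of the vector and the strain of the mice are not given in the sources used here. Nothing says that replicates were separate cultures, and the p-values then reflect the spread between these libraries alone, which may be technical. Differences are given as log2(FPKM + 0.5) in YAP minus EV with their standard error (SE), levels as FPKM with their standard deviation (SD, n = 4 libraries a group), and a call means a Benjamini-Hochberg adjusted p under 0.05 in limma over the 13276 genes tested.

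Yap1 itself was listed at 80.0 to 84.9 FPKM in libraries labelled YAP and at 88.4 to 93.2 FPKM in libraries labelled EV (limma adjusted p = 0.259), so its level does not check the vector, and directions rest on the labels. The YAP targets Cyr61, Ctgf and Ankrd1 rose in libraries labelled YAP, with differences of 0.93, 0.89 and 1.01 within mCherry and of 0.83, 0.85 and 1.17 within GFP (limma adjusted p over both reporters = 0.00273, 0.0122 and 0.017). All 14 fibroblast markers passed the filter on low values, and their summed level was 10680 to 12190 FPKM in YAP and 10560 to 11280 FPKM in EV libraries. Of 24 skeletal and cardiac muscle markers, 7 were listed at 0 in every library, among them the myogenic factors Myod1, Myog, Myf5 and Myf6, and all that had a row summed to at most 13.2 FPKM in YAP and 11.1 FPKM in EV libraries. The FPKM values of a library summed to between 733152 and 1018400, and the number of fragments is unknown. The sums were 1018400 and 923743 in the EV GFP and 733152 and 773938 in the EV mCherry libraries. In YAP libraries the sums lay between 880441 and 897659. A single gene, Gm3788, held 27.65% and 29.11% of the sum in the EV GFP and 13.55% and 17.46% in the EV mCherry libraries. It held 22.21% to 27.44% in YAP libraries, so the sums depend in part on that gene.

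Upstream windows of 5 members are shown because they belong to 4 muscle genes on which the results turn (Acta2, Myl9, Cnn1 and Mylk) and to the SRF gene itself. Each is the 250 bases before the start of the gene in the RefSeq table of GRCm38.p6, on the gene's own strand. The windows are chr19:34255374-34255623 (minus strand), chr2:156775214-156775463 (plus strand), chr9:22099003-22099252 (plus strand), chr16:34784700-34784949 (plus strand) and chr17:46556163-46556412 (minus strand). Capitals mark CArG boxes (a pair of C, a run of A or T, a pair of G), and also boxes in which 1 letter of the run is C or G.
Acta2: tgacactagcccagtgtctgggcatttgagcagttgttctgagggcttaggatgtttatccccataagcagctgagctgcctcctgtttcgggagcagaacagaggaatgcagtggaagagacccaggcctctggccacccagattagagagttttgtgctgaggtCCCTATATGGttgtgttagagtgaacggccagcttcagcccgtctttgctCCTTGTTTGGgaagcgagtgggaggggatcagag
Myl9: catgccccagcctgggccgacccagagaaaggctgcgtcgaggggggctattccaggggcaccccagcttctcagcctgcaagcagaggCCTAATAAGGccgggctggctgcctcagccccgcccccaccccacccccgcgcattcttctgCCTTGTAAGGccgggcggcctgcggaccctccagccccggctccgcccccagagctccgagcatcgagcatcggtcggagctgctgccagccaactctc
Cnn1: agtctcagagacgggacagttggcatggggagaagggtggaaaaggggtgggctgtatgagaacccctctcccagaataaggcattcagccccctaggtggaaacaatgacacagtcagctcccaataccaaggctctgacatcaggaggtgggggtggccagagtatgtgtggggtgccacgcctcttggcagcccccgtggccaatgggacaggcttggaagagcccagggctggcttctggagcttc
Mylk: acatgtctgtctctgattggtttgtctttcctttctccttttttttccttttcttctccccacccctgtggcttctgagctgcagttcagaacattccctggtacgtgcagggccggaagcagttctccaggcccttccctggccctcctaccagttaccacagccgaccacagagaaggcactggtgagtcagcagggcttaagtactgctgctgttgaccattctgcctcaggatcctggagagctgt
Srf: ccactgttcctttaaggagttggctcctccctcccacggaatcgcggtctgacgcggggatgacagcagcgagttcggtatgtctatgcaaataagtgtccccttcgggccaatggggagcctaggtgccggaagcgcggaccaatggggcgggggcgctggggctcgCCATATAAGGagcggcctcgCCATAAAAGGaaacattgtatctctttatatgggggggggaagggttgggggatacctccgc

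Both boxes of the Acta2 window differ from the full motif by 1 letter of the run, and begin at positions -84 and -34 from the gene's start. The Myl9 window holds a full box at -161 and a box with 1 differing letter at -99, and the Srf window holds full boxes at -82 and -62. The windows of Cnn1 and Mylk hold neither form. The Mylk window lies inside the gene as GENCODE draws it (chromosome 16, 34745210 to 35002420), and the other windows overlap the 5′ end of their GENCODE genes.

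RefSeq windows were found for 29 of the 36 members, with 34 windows in all, and none was matched for Tgfb1i1, Tagln, Myocd, Myh11, Actg2, Csrp2 and Actb. Read on both strands, a full CArG box stood in 9 of the 34 windows (26.5%), against 1.47% of all 32851 windows of that length. Boxes with 1 differing letter stood in 7 windows (20.6%), against 7.24% of all windows. The motif GGAATG, which TEAD factors are known to bind, or its other strand CATTCC, stood in 11 windows (32.4%), against 12.6% of all windows, and overlapped no CArG box of a member. By class, 3 of 14 muscle genes and 6 of 15 general genes with a window had a full box. The 3 muscle genes were Acta1, Actc1 and Myl9, of which only Myl9 entered the tests of expression. The match of letters is a description of these windows and says nothing of binding.

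In the comparison of YAP with EV libraries, which asks what differs in cells that carry the YAP vector, 3 of the 31 tested members fell and 0 rose. The background was 0.821% of all tested genes lower and 0.934% higher. Cnn1 (calponin 1, which binds actin and slows smooth muscle myosin), Mylk (myosin light chain kinase, which switches myosin on by phosphorylating its regulatory light chain) and Myh10 (the heavy chain of non-muscle myosin IIB) were the genes that fell. By class, 2 of 13 muscle genes and 1 of 18 general genes fell. The median difference was -0.22 over the muscle genes, with 10 of 13 below 0, and 0.02 over the general genes, with 7 of 18 below 0, beside -0.0038 over all genes tested, with 50.7% below 0. The classes split genes, and a gene-level value does not separate muscle from non-muscle isoforms of the same gene. Beside this, pericyte and vascular smooth muscle markers summed to 103 to 129 FPKM in YAP and 139.6 to 146 FPKM in EV libraries, and their part in the differences was not tested. In bulk RNA, fewer cells of a type and less RNA per cell cannot be told apart.

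Without regard to calls, all 4 YAP values lay below all 4 EV values in 8 of the 31 tested members, against 4.83% of all genes tested, and above them in 1, against 4.63% of all genes. The 8 were 6 muscle genes (Acta2, Actg2, Cnn1, Myl9, Mylk and Tpm2) and 2 general genes (Myh10 and Flna), and the 1 that lay above was Cnn2. At an unadjusted p under 0.05, limma gave 9 members lower and 1 higher, against 7.12% and 7.39% of all genes.

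**Figure D1:**
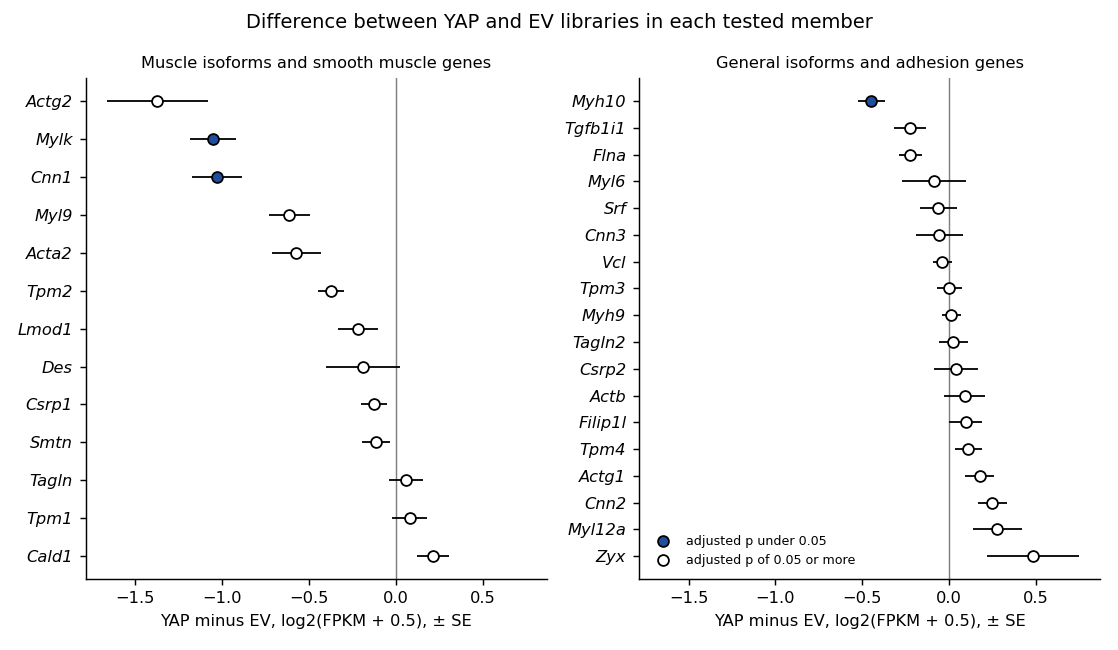
Difference between libraries labelled YAP and libraries labelled EV on the log2(FPKM + 0.5) scale (x axis, point and SE) for the 13 tested muscle genes (left) and the 18 tested general genes (right), with filled points for an adjusted p under 0.05. Actg2, Mylk and Cnn1 lie at -1.38, -1.05 and -1.03 among the muscle genes, while Tagln, Tpm1 and Cald1 lie above 0 and the general genes lie between -0.45 (Myh10) and 0.48 (Zyx).

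Among the actins, Acta2 (GRCm38: ENSMUSG00000035783, chromosome 19, 34241090 to 34255590, minus strand) was measured at 843 and 819 FPKM in the mCherry and 469.7 and 476 FPKM in the GFP libraries labelled YAP, against 955 and 975 FPKM in the mCherry and 904 and 903 FPKM in the GFP libraries labelled EV. The YAP GFP libraries were lowest, the YAP mCherry libraries came next, and the groups did not overlap. The means were 652 ± 207 FPKM in YAP and 934 ± 36.3 FPKM in EV libraries, a difference of -0.57 (SE 0.141) that did not pass limma's test (adjusted p = 0.12). Actg2, the gamma-actin of enteric smooth muscle (ENSMUSG00000059430, chromosome 6, 83512905 to 83536265, minus strand), stood at 44.1 and 33.8 FPKM in the mCherry and 11.3 and 20.1 FPKM in the GFP libraries labelled YAP, against 68.9 and 62.2 FPKM in the mCherry and 60.7 and 63.0 FPKM in the GFP libraries labelled EV. Every YAP library again lay below every EV library, and the YAP libraries were spread widely while the EV libraries were close together. The means were 27.4 ± 14.5 FPKM in YAP and 63.7 ± 3.61 FPKM in EV libraries, a difference of -1.38 (SE 0.291, limma adjusted p = 0.0798). Actc1 was listed at 0 in 7 libraries and at 0.137 FPKM in EV replicate 4.

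The general cytoplasmic actins did not pass the test. Actb (beta-actin, ENSMUSG00000029580, chromosome 5, 142903115 to 142906754, minus strand) stood at 2295 and 2398 FPKM in the mCherry and 1613 and 1998 FPKM in the GFP libraries labelled YAP, against 1779 and 1973 FPKM in the mCherry and 2049 and 1918 FPKM in the GFP libraries labelled EV. The groups overlapped, and the lowest and the highest library were both labelled YAP. The means were 2076 ± 352 FPKM in YAP and 1930.0 ± 114 FPKM in EV libraries (difference 0.09, SE 0.118, limma adjusted p = 0.778). Actg1 (cytoplasmic gamma-actin) had means of 921 ± 98.4 FPKM in YAP and 813 ± 41.9 FPKM in EV libraries (difference 0.18, limma adjusted p = 0.391). The coding sequences of the actins are similar, so some fragments may have been split between them, and their levels are uncertain to that extent.

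Cnn1 (ENSMUSG00000001349, chromosome 9, 22099216 to 22109630, plus strand) stood at 25.8 and 28.6 FPKM in the mCherry and 16.1 and 15.6 FPKM in the GFP libraries labelled YAP, against 45.1 and 44.5 FPKM in the mCherry and 37.1 and 45.5 FPKM in the GFP libraries labelled EV. The lowest EV library exceeded the highest YAP library, and within YAP the GFP pair was the lower one. The means were 21.5 ± 6.66 FPKM in YAP and 43.1 ± 3.97 FPKM in EV libraries, a difference of -1.03 (SE 0.144, limma adjusted p = 0.0223). The general calponins are Cnn2 and Cnn3, which are made in many cell types. Cnn2 stood at 345 and 441 FPKM in the mCherry and 338 and 339.8 FPKM in the GFP libraries labelled YAP, against 337 and 313 FPKM in the mCherry and 292 and 285 FPKM in the GFP libraries labelled EV. All YAP values lay above all EV values, by a narrow margin, and YAP replicate 4 stood apart. The difference was 0.25 (SE 0.0822) and did not pass limma's test (adjusted p = 0.232). Cnn3 had means of 242 ± 29.8 FPKM in YAP and 254 ± 50.3 FPKM in EV libraries (limma adjusted p = 0.893).

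Tagln (transgelin or SM22 alpha, an actin-binding protein of smooth muscle and one of the best-known SRF targets, ENSMUSG00000032085, chromosome 9, 45929619 to 45936058, minus strand) stood at 602 and 646 FPKM in the mCherry and 512 and 499 FPKM in the GFP libraries labelled YAP, against 539.7 and 509 FPKM in the mCherry and 602 and 509 FPKM in the GFP libraries labelled EV. The groups overlapped, with the highest and the lowest value both in libraries labelled YAP. Its means were 565 ± 71.1 FPKM in YAP and 539.8 ± 43.9 FPKM in EV libraries, a difference of 0.06 (SE 0.0982, limma adjusted p = 0.827). Its general relative Tagln2 had means of 262 ± 13.9 FPKM in YAP and 258 ± 26.1 FPKM in EV libraries (limma adjusted p = 0.927).

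Among the myosins and their regulators, Myl9 (the regulatory light chain of smooth muscle and non-muscle myosin, ENSMUSG00000067818, chromosome 2, 156775420 to 156781658, plus strand) stood at 370.2 and 359 FPKM in the mCherry and 256 and 236 FPKM in the GFP libraries labelled YAP, against 446 and 479 FPKM in the mCherry and 471 and 438 FPKM in the GFP libraries labelled EV. The groups did not overlap and the YAP GFP pair was lowest. The means were 305 ± 68.97 FPKM in YAP and 459 ± 19.6 FPKM in EV libraries, a difference of -0.61 (SE 0.116) that just missed the threshold in limma (adjusted p = 0.0556). Mylk (ENSMUSG00000022836, chromosome 16, 34745210 to 35002420, plus strand) stood at 1.99 and 2.38 FPKM in the mCherry and 1.65 and 2.19 FPKM in the GFP libraries labelled YAP, against 4.68 and 5.13 FPKM in the mCherry and 4.87 and 4.40 FPKM in the GFP libraries labelled EV. All YAP libraries were under 2.5 FPKM and all EV libraries above 4 FPKM, and the reporters overlapped within each group. The means were 2.05 ± 0.312 FPKM in YAP and 4.77 ± 0.306 FPKM in EV libraries, a difference of -1.05 (SE 0.131, limma adjusted p = 0.0162). The gene-level value does not separate the short smooth muscle kinase, the long non-muscle kinase and telokin, which Mylk also encodes.

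Myh11, the heavy chain of smooth muscle myosin, was too low for the filter. It stood at 0.659 and 0.336 FPKM in the mCherry and 0.264 and 0.169 FPKM in the GFP libraries labelled YAP, against 1.94 and 1.30 FPKM in the mCherry and 0.954 and 0.833 FPKM in the GFP libraries labelled EV. All YAP values lay below all EV values, with means of 0.357 ± 0.213 FPKM in YAP and 1.26 ± 0.497 FPKM in EV libraries, and with the filter dropped the difference was -1.03 (limma adjusted p = 0.0697). The general heavy chain Myh10 (ENSMUSG00000020900, chromosome 11, 68691559 to 68816632, plus strand) stood at 67.6 and 69.6 FPKM in the mCherry and 71.0 and 67.3 FPKM in the GFP libraries labelled YAP, against 109 and 99.2 FPKM in the mCherry and 85.5 and 84.7 FPKM in the GFP libraries labelled EV. The YAP libraries were within 4 FPKM of each other, and the EV libraries lay above them, those with mCherry highest. The means were 68.9 ± 1.71 FPKM in YAP and 94.6 ± 11.7 FPKM in EV libraries, a difference of -0.45 (SE 0.0802, limma adjusted p = 0.0477). Myh9, the heavy chain of non-muscle myosin IIA, stood at 222 and 245 FPKM in the mCherry and 230.4 and 226 FPKM in the GFP libraries labelled YAP, against 238 and 221 FPKM in the mCherry and 229.7 and 226 FPKM in the GFP libraries labelled EV. The groups overlapped throughout, and the difference was 0.01 (SE 0.0571, limma adjusted p = 0.947). The light chain genes Myl6 (136 ± 25.8 FPKM in YAP and 145 ± 29.8 FPKM in EV libraries) and Myl12a (542 ± 45.2 FPKM in YAP and 453 ± 99.5 FPKM in EV libraries) did not pass limma's test (adjusted p = 0.874 and 0.429).

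**Figure D2:**
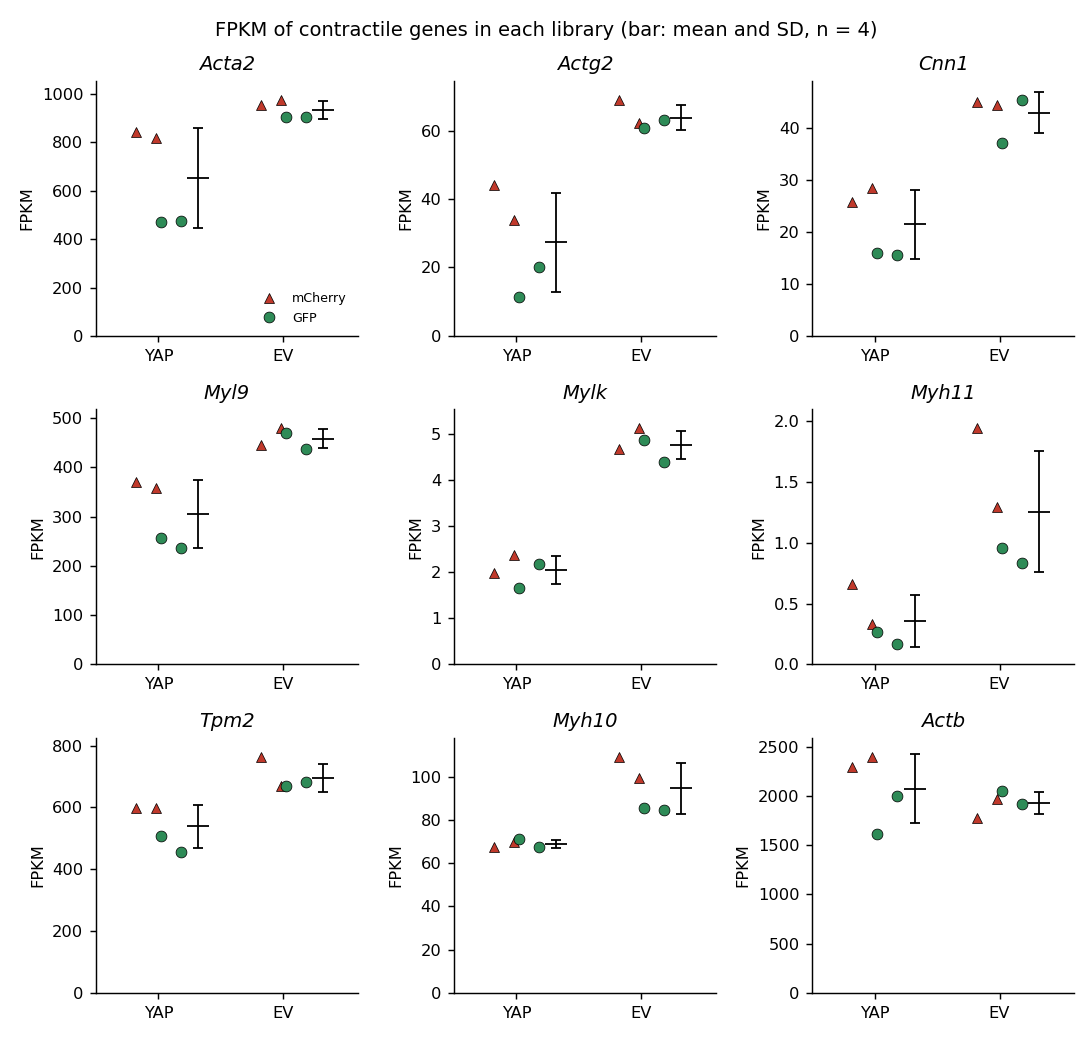
FPKM (y axis, from 0) of 9 members in each library labelled YAP (left) or EV (right), with triangles for mCherry and circles for GFP, and a bar for the mean and SD of 4 libraries. Acta2, Actg2, Cnn1, Myl9, Mylk, Myh11, Tpm2 and Myh10 show no overlap between the groups, Actb does, and in Acta2 the 2 YAP GFP libraries lie at 469.7 and 476 FPKM, well under the 2 YAP mCherry libraries at 843 and 819 FPKM.

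Tropomyosins lie along the actin filament and, in muscle, control the access of myosin. Tpm2, which is rich in muscle, stood at 597 and 597 FPKM in the mCherry and 509 and 455 FPKM in the GFP libraries labelled YAP, against 764 and 669 FPKM in the mCherry and 668 and 681 FPKM in the GFP libraries labelled EV. The groups did not overlap, and the difference of -0.37 (SE 0.0765) did not pass limma's test (adjusted p = 0.0744). Tpm1 (1700.0 ± 238 FPKM in YAP and 1602 ± 131 FPKM in EV libraries) had the highest level of the tropomyosins per length and a difference of 0.08 (limma adjusted p = 0.779). The general tropomyosins Tpm3 (87.3 ± 1.64 FPKM in YAP and 87.5 ± 8.16 FPKM in EV libraries) and Tpm4 (374 ± 43.1 FPKM in YAP and 344 ± 16.6 FPKM in EV libraries) had differences of 0.00 and 0.11 (limma adjusted p = 0.998 and 0.564).

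None of the other muscle genes passed limma's test, and each had overlapping groups. Cald1 (caldesmon, an actin-binding brake on myosin) averaged 339 ± 26.2 FPKM in YAP and 293 ± 29.2 FPKM in EV libraries. Lmod1 (leiomodin 1, a nucleator of smooth muscle actin filaments) averaged 6.86 ± 0.525 FPKM in YAP and 8.17 ± 1.69 FPKM in EV libraries. Smtn (smoothelin, a stress fibre protein of contractile smooth muscle) averaged 39.8 ± 2.12 FPKM in YAP and 43.2 ± 3.53 FPKM in EV libraries. Their differences were 0.21, -0.22 and -0.12. Des (desmin, the muscle intermediate filament) averaged 3.39 ± 0.373 FPKM in YAP and 4.05 ± 1.33 FPKM in EV libraries, and Csrp1 (a LIM protein of smooth muscle) 186 ± 16.1 FPKM in YAP and 202 ± 8.01 FPKM in EV libraries. The limma adjusted p of these 5 genes lay between 0.358 and 0.738. Synpo2 averaged 0.474 ± 0.147 FPKM in YAP and 0.574 ± 0.133 FPKM in EV libraries, and with the filter dropped the difference was -0.14 (limma adjusted p = 0.751).

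Among the genes of adhesion and cross-linking, Flna (filamin A, which cross-links actin and ties it to integrins) stood at 350.5 and 339 FPKM in the mCherry and 284 and 295 FPKM in the GFP libraries labelled YAP, against 359 and 376 FPKM in the mCherry and 367 and 373 FPKM in the GFP libraries labelled EV. The groups did not overlap, though YAP replicate 3 came within 10 FPKM of EV replicate 3, and the difference of -0.22 (SE 0.0687) did not pass limma's test (adjusted p = 0.205). Zyx (zyxin, a sensor of tension at adhesions and stress fibres) averaged 224 ± 71.1 FPKM in YAP and 159.5 ± 49.0 FPKM in EV libraries, with a spread that left its difference of 0.48 at an SE of 0.266 (limma adjusted p = 0.467). Vcl (vinculin, which links integrin adhesions to actin) averaged 148 ± 3.73 FPKM in YAP and 152 ± 4.89 FPKM in EV libraries, and Tgfb1i1 (Hic-5, an adhesion adaptor) 51.7 ± 7.43 FPKM in YAP and 60.2 ± 4.11 FPKM in EV libraries. Filip1l averaged 41.0 ± 6.81 FPKM in YAP and 38.1 ± 2.99 FPKM in EV libraries, and Csrp2, a LIM protein related to Csrp1, 31.2 ± 5.11 FPKM in YAP and 30.1 ± 2.30 FPKM in EV libraries. None of these 4 passed limma's test (adjusted p = 0.789, 0.316, 0.699 and 0.924).

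The regulators themselves did not pass. Srf stood at 17.0 and 18.9 FPKM in the mCherry and 13.8 and 15.6 FPKM in the GFP libraries labelled YAP, against 16.4 and 16.2 FPKM in the mCherry and 18.7 and 16.8 FPKM in the GFP libraries labelled EV. The groups overlapped, and the lowest and the highest library were both labelled YAP. The difference was -0.06 (SE 0.107, limma adjusted p = 0.833). Myocd, the muscle-restricted partner of SRF, was low, at 0.276 and 0.411 FPKM in the mCherry and 0.342 and 0.375 FPKM in the GFP libraries labelled YAP, against 0.597 and 0.285 FPKM in the mCherry and 0 and 0.0852 FPKM in the GFP libraries labelled EV. Its groups overlapped, and with the filter dropped the difference was 0.26 (limma adjusted p = 0.717).

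The 3 calls were sensitive to single libraries. Myh10 lost its call without any one of the 8 libraries (limma adjusted p from 0.0793 to 0.137). Cnn1 kept it only without YAP replicate 4 (limma adjusted p from 0.0406 to 0.0854), and Mylk kept it only without YAP replicate 1, 3 or 4 (0.0406 to 0.067).

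The second question of the design is whether the YAP difference was the same with both reporters. Within mCherry, 0 of the 31 members passed the test in either direction, against 0.158% of all genes lower and 0.241% higher, with 9 lower and 5 higher at an unadjusted p under 0.05 (background 4.79% and 6.24%). Within GFP, 4 of the 31 fell and 0 rose, against 0.625% of all genes lower and 0.67% higher, with 10 lower and 1 higher at an unadjusted p under 0.05 (background 8.5% and 7.61%). The 4 were all muscle genes, namely Acta2, Actg2, Cnn1 and Myl9. These fits give each vector and reporter arm, with 2 libraries, its own mean and 1 shared spread.

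Acta2 differed by -0.22 within mCherry (SE 0.0545, limma adjusted p = 0.243) and by -0.93 within GFP (SE 0.0545, adjusted p = 0.00426). As ratios of arm means, YAP stood at 0.861 of EV within mCherry and at 0.523 of EV within GFP. The difference between the reporters was 0.72 (SE 0.0771), which had an unadjusted p of 8.02e-05 and did not pass after adjustment over all genes (limma adjusted p = 0.0831). Myl9 differed by -0.34 within mCherry (limma adjusted p = 0.203) and -0.88 within GFP (adjusted p = 0.0111), and Cnn1 by -0.71 within mCherry (adjusted p = 0.111) and -1.35 within GFP (adjusted p = 0.0111). Actg2 differed by -0.75 within mCherry (limma adjusted p = 0.39) and -1.997 within GFP (adjusted p = 0.0326). The difference between the reporters did not pass for Actg2, Cnn1 or Myl9 either (limma adjusted p = 0.411, 0.385 and 0.296). The 4 were picked by their calls within GFP, so a larger estimate there was largely built in. All 4 were lower in YAP with both reporters, and the estimate was the larger one within GFP.

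Not every member had that order. For Mylk the estimates were close, -1.01 within mCherry and -1.09 within GFP (limma adjusted p = 0.147 and 0.0651), with a difference between them of 0.08 (SE 0.270). Myh10 differed more within mCherry, by -0.60 (limma adjusted p = 0.0678), than within GFP, by -0.30 (adjusted p = 0.172). Its arm means were 68.6 FPKM in YAP mCherry, 104 FPKM in EV mCherry, 69.1 FPKM in YAP GFP and 85.1 FPKM in EV GFP, so the 2 EV arms were farther apart than the 2 YAP arms. Zyx differed by 1.00 within mCherry and -0.03 within GFP (limma adjusted p = 0.273 and 0.977).

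The test of the difference between the reporters called 0 of the 31 members in limma. Of all genes, 0.0452% were called with a YAP minus EV difference more positive in mCherry than in GFP, and 0.0226% with one less positive. At an unadjusted p under 0.05 it was more positive in mCherry in 12 members and less positive in 1, against 5.61% and 4.2% of all genes. The 12 were 6 muscle and 6 general genes, and the 1 was Myh10. The estimate was the larger one within GFP in 9 of 13 muscle and 7 of 18 general genes, against 55.5% of all genes tested and 64.8% of the 233 genes called in YAP against EV. Between the reporters over both vectors (mCherry minus GFP), limma called 0 of 31 members, against 0.0603% of all genes higher and 0.0301% lower. At an unadjusted p under 0.05, 5 members were higher and 0 lower (background 5.98% and 4.59%), and the 5 were Acta2, Actg2, Cnn1, Myl9 and Tpm2. In each of the 5 the reporters were farther apart in YAP than in EV libraries. Acta2 averaged 831 FPKM in YAP mCherry and 473 FPKM in YAP GFP, against 965 FPKM in EV mCherry and 903.5 FPKM in EV GFP libraries. This contrast is thus not a result apart from the difference between the reporters given above.

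**Figure D3:**
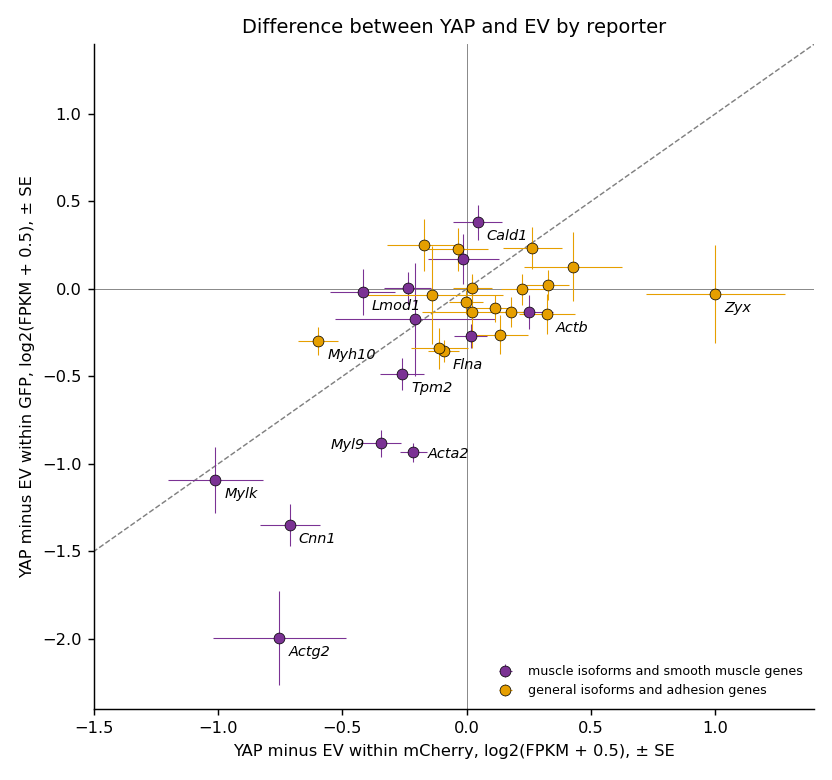
YAP minus EV difference of the 31 tested members on the log2(FPKM + 0.5) scale within mCherry (x axis) and within GFP (y axis), with SE bars, muscle genes in purple and general genes in orange, and a dashed line where both are equal. Acta2, Myl9, Cnn1 and Actg2 lie below the line (Acta2 at -0.22 and -0.93), Mylk lies near it (-1.01 and -1.09), and Myh10 above it (-0.60 and -0.30).

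Calls within GFP also depended on single libraries, other than that of Acta2, which held without any one of the 8 (limma adjusted p from 0.0125 to 0.0261). Cnn1 lost its call without YAP replicate 1 or 2, Myl9 without EV replicate 1 or YAP replicate 2, and Actg2 without any library but YAP replicate 2, where an arm left with 1 library is assumed to vary like the others (adjusted p up to 0.066 for Cnn1, 0.0576 for Myl9 and 0.165 for Actg2).

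Markers of other cell types differed between the same libraries. Pericyte and vascular smooth muscle markers summed to 124 to 129 FPKM in YAP mCherry, 143 to 146 FPKM in EV mCherry, 103 to 112 FPKM in YAP GFP and 139.6 to 145 FPKM in EV GFP libraries. Of 12 such markers none was at 0 in every library, 6 were tested and 1 fell, against 0.821% of all genes. It was Mcam, with 19.1 ± 2.82 FPKM in YAP and 28.4 ± 0.984 FPKM in EV libraries (limma adjusted p = 0.0485). The list median was -0.28 within mCherry and -0.58 within GFP. Over both reporters only Notch3 of the 6 lay above 0 (0.32, limma adjusted p = 0.165). Within GFP alone 2 of the 6 fell, Mcam (limma adjusted p = 0.0282) and Cspg4 (0.0401), against 0.625% of all genes. Within mCherry 0 fell, against 0.158% of all genes. Of 17 macrophage markers none was at 0 in every library, 15 were tested and 3 fell (Ms4a7, C1qa and C1qc). Of the 15, 13 lay below 0, and Tyrobp and Laptm5 lay above. The list median was -0.21 within mCherry and -0.68 within GFP, where 1 fell (Ms4a7, limma adjusted p = 0.046), against 0 within mCherry. The macrophage markers summed to 388 to 414 FPKM in YAP mCherry, 425 to 463 FPKM in EV mCherry, 188 to 229.6 FPKM in YAP GFP and 331 to 349 FPKM in EV GFP libraries. Both lists were thus lowest in the YAP GFP libraries, as Acta2, Cnn1 and Myl9 were, and their part in the differences of the contractile genes was not tested.

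Of 14 fibroblast markers 3 fell (Postn, Pdgfra and Lum) and 0 rose, against 0.821% of all genes lower and 0.934% higher. The list median was -0.034, with 8 of the 14 below 0. Of 6 tested epithelial and mesothelial markers 2 rose (Krt7 and Msln) and 0 fell. The list median was 0.946, with 2 of the 6 below 0 (Krt18 and Wt1). Krt7 averaged 6.94 FPKM in YAP and 0.956 FPKM in EV libraries, so it passed the filter on low values through its YAP libraries. All 11 markers, of which Epcam and Krt5 were at 0 in every library, summed to 45.6 to 82.8 FPKM in YAP and 24.6 to 35.6 FPKM in EV libraries. Of 8 endothelial markers, which summed to 12.2 to 15.0 FPKM in YAP and 16.6 to 20.6 FPKM in EV libraries, only Erg was tested, and it fell (limma adjusted p = 0.017), while Tie1 was at 0 in every library. None of 5 tested skeletal and cardiac muscle markers passed.

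FPKM is per length, so the share of an isoform in the summed FPKM of its family is free of any scaling between libraries. It shows the balance of isoforms within each library. That balance is not always one of muscle against general forms. Myh9 and Myh10 are both general genes, and Tpm1 and Tpm2 are both muscle genes. These shares are descriptions with no test. Of the summed actin FPKM, leaving out Acta1, Acta2 made up 20.2% and 19.2% in the mCherry and 16.3% and 14.1% in the GFP libraries labelled YAP, against 26.8% and 25.3% in the mCherry and 23.6% and 24.2% in the GFP libraries labelled EV. The groups did not overlap, and the means were 17.4% ± 2.82 in YAP and 25.0% ± 1.41 in EV libraries. Actg2 averaged 0.710% in YAP and 1.71% in EV libraries, and Actb 56.5% ± 1.72 in YAP and 51.6% ± 1.502 in EV libraries, again with no overlap. The share of Actb was thus higher in every YAP library than in any EV library, while its levels overlapped. The actin shares rest on Actg1 at 921 FPKM in YAP and 813 FPKM in EV libraries. The authors' second deposited table, with 1 pooled arm per vector, lists Actg1 at 203 FPKM in YAP and 173 FPKM in control. The actin shares are uncertain to that extent.

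Of the 3 calponins, Cnn1 made up 4.11% and 4.24% in the mCherry and 2.74% and 2.48% in the GFP libraries labelled YAP, against 7.76% and 7.25% in the mCherry and 6.52% and 6.99% in the GFP libraries labelled EV. The shares did not overlap, and the mean was 3.39% ± 0.911 in YAP and 7.13% ± 0.517 in EV libraries. Myl9 held 35.8% ± 5.54 of Myl9 and Myl12a together in YAP and 50.7% ± 4.62 in EV libraries, where the nearest values were 42.9% in YAP replicate 3 and 43.9% in EV replicate 1. Tagln held 68.2% ± 1.99 of the transgelins in YAP and 67.7% ± 2.95 in EV libraries, with overlap.

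Of the 3 heavy chains, Myh10 held 23.0% ± 0.625 in YAP and 29.1% ± 2.26 in EV libraries, and Myh11 0.120% in YAP and 0.382% in EV libraries, with no overlap in either. Tpm2 held 20.1% ± 3.17 of the tropomyosins in YAP and 25.5% ± 1.12 in EV libraries. Here YAP replicate 3, at 24.1%, lay just above EV replicate 1, at 24.0%.

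**Figure D4:**
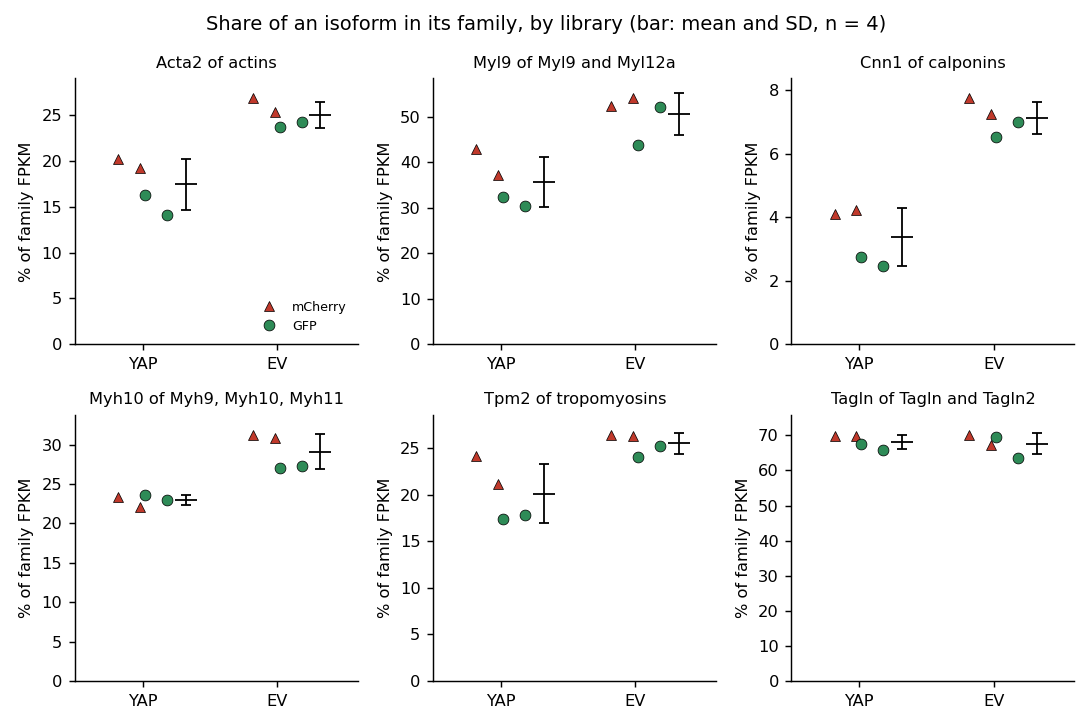
Share of 1 isoform in the summed FPKM of its family (y axis, percent, from 0) in each library labelled YAP (left) or EV (right), with triangles for mCherry and circles for GFP, and a bar for the mean and SD of 4 libraries. Acta2, Myl9, Cnn1 and Myh10 had lower shares in every YAP library than in any EV library, Tpm2 overlapped in 1 YAP library, and Tagln was near 68% in both groups.

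Few genes of the machinery around these members passed the test, and few of all tested genes did (0.821% lower and 0.934% higher). Of 12 tested partners and regulators of SRF, 0 passed limma's test in either direction, with a median difference of -0.07, and Mrtfa and Mrtfb, the actin-regulated partners, averaged 24.3 ± 5.41 and 6.90 ± 0.125 FPKM in YAP and 24.7 ± 1.84 and 6.56 ± 0.57 FPKM in EV libraries. None of 30 tested genes of actin assembly and turnover passed (median 0.000176). Of 18 tested cross-linkers and stress fibre scaffolds, 1 rose and 0 fell (median -0.05). It was Flnc (filamin C, the muscle filamin), with 92.3 ± 6.66 FPKM in YAP and 72.0 ± 2.53 FPKM in EV libraries, a difference of 0.35 (limma adjusted p = 0.0423).

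The authors' deposited table, which sets 1 pooled YAP arm against 1 pooled control arm, called 6 members lower and 1 higher of the 32 with a tested status, against 2.91% and 3.04% of its 12005 tested genes. The 6 lower in the authors' deposited table were muscle genes. Acta2 had 708 FPKM in the YAP arm and 1015 FPKM in the control arm of the authors' deposited table, Actg2 had 29.9 FPKM in YAP and 69.2 FPKM in control, Cnn1 had 24.1 FPKM in YAP and 48.0 FPKM in control, and Mylk had 2.38 FPKM in YAP and 5.48 FPKM in control, each with q = 0.000502. In the same authors' deposited table Myl9 had 341 FPKM in YAP and 508 FPKM in control (q = 0.0025), and Tpm2 552 FPKM in YAP and 729 FPKM in control (q = 0.0217). The 1 higher in the authors' deposited table was Zyx (264 FPKM in YAP and 196 FPKM in control, q = 0.0189), whose YAP and EV values overlap in the per-library table. In the authors' deposited table Myh10 missed the call (90.4 FPKM in YAP and 117 FPKM in control, q = 0.123). The authors' deposited table holds no values of single libraries, so its q-values cannot be set against the spread between them.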

How the data were processed

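Polyadenylated RNA was measured in 8 libraries, and absolute depth is unknown because no fragment counts were used here. The authors deposited FPKM values per gene and library, per the file headers, with TopHat, Cufflinks and mm10 named in the submitters' processing notes. A second deposited table of the authors gives FPKM, p-values and q-values for 1 pooled arm per vector, per the file headers, and entered no test. Its locus for a gene can be far wider than the gene: 389 kb for Srf (gene 7.85 kb), 622 kb for Myl12a (9.22 kb), 97.5 kb for Tagln (6.44 kb) and 52.5 kb for Zyx (10.6 kb). Strand handling and the annotation release are not given in the sources used here.

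The 49 identifiers on several rows (114 of 48641 rows) were dropped. Genes with a mean of at least 1 FPKM were fitted as log2(FPKM + 0.5), a scale that understates changes of low genes, with limma 3.58.1 (R 4.3.3), a variance trend, and terms for reporter and vector. A second fit held their interaction, with within-reporter contrasts of 4 arm means. P-values were Benjamini-Hochberg adjusted over all tested genes, with a threshold of 0.05. The fits were checked on simulated data. An exact 0 can be a failed estimate. Coordinates are GENCODE M21 (GRCm38), 1-based. Python 3.11.15, pandas 2.3.3, numpy 2.4.6 and matplotlib 3.10.9 were used.

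Every member was accounted for. Values in every library were given for called members, members whose groups do not overlap, and Acta2, Actb, Tagln, Cnn1, Myh9, Myh11, Mylk, Srf and Myocd. Members and lists were chosen with earlier results of these data known. The result of 1 gene list is not reported here. Alternatives were pseudocounts of 0.1 and 1, no filter, no variance trend, median-ratio scaling, no reporter term, a replicate block and leaving out each library.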

Additional observations from a re-analysis of the deposited data

Results flagged for a closer look

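Of 64 groups of 4 values looked at for 1 library far from the other 3 (Dixon's ratio above its 95% critical value), 7 had one, and chance gives about 5% of groups. Libraries labelled EV gave 4 of them. Cnn1 was at 37.1 FPKM in EV replicate 1 and at 44.5 to 45.5 FPKM in the others. Tpm2 was at 764 FPKM in EV replicate 3 and at 668 to 681 FPKM in the others. Myl12a was at 603 FPKM in EV replicate 1 and at 400.0 to 406 FPKM in the others, and Zyx at 233 FPKM in EV replicate 2 and at 130.5 to 142 FPKM in the others.

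Libraries labelled YAP gave 3. Cnn2 was at 441 FPKM in YAP replicate 4 and at 338 to 345 FPKM in the others. Des was at 2.83 FPKM in YAP replicate 3 and at 3.53 to 3.60 FPKM in the others. Tpm3 was at 84.8 FPKM in YAP replicate 2 and at 87.9 to 88.3 FPKM in the others.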

How the results depend on the processing

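Of 15 alternatives to the YAP against EV fit, 9 left under 2 of the 3 members that fell: the count was 1 without the reporter term, 0 with the replicate block, and 0 to 2 when 1 library was left out. It stayed at 3 with the other pseudocounts and was 2 without the filter, without the variance trend and with median-ratio scaling, where Myh10 was lost. No member rose under any of the 15. Over them, the adjusted p of limma ran from 0.0123 to 0.11 for Mylk, from 0.0205 to 0.146 for Cnn1 and from 0.0458 to 0.21 for Myh10. Within GFP, 2 to 3 members fell in place of 4 when 1 library was left out, and 3 without the variance trend, where Actg2 was lost with all 8 libraries kept (limma adjusted p = 0.0539). Within mCherry 1 fell (Myh10) without the filter. The causes were not tested, and fewer libraries also widen the errors.

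Acta2, Actg2, Cnn1, Myl9, Mylk, Tpm2, Flna and Myh10 stayed below 0 in YAP against EV under all 15. These are the tested members whose YAP values all lie below their EV values. Neither a library left out nor another pseudocount could therefore turn their sign. With 1 library left out, the sign turned for Myh9 (-0.0172 to 0.0401) and Srf (-0.1336 to 0.0092) in YAP against EV, for Actb (-0.2971 to 0.0112) and Myh9 (-0.0094 to 0.0175) within GFP, and for Cnn2 (-0.1434 to 0.2083), Myh9 (-0.0531 to 0.09) and Mylk (-0.0804 to 0.2408) in the difference between the reporters. The share of Myh10 differed by -6.12 percentage points, by -8.33 within mCherry and by -3.91 within GFP. Deviations of same-numbered YAP and EV libraries from their group means correlated at 0.0521, 0.0206, -0.015 and 0.0897. Those means run over both reporters and few libraries, so the correlations cannot decide whether the numbers pair the libraries. The replicate block called 9 genes lower in all.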

Other observations

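Skeletal muscle actin, Acta1, appears only in the authors' deposited table, at 2.64 FPKM in the YAP arm and 6.01 FPKM in the control arm (q = 0.585), over a locus of 4435 kb. Actg1 stood at 203 FPKM in the YAP arm and 173 FPKM in the control arm of the authors' deposited table, and averaged 921 FPKM in YAP and 813 FPKM in EV libraries of the per-library table, so its level, though not its direction, differs between the tables. The second identifier of Tgfb1i1 has the same locus as the first there, with 1.28 FPKM in the YAP arm and 2.33 FPKM in the control arm.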
